A study of Labrus bergylta with 24 samples.

Results

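The 300 transcripts described here were those whose levels followed the first principal component of hindgut gene expression most closely, among 24 ballan wrasse (*Labrus bergylta*). They were selected on measured values. Each deposited value, a read count divided by a size factor for the library (a normalized count), was turned into log2(normalized count + 1) for the 17056 transcripts with a mean of at least 10, out of 20751 in the table. A principal component analysis of the 24 libraries was run on these values, with each transcript centred but not scaled. The 300 transcripts with the highest Pearson correlation (r) with the first component were taken, with the sign of the component set so that prebiotic replicate 4 was positive. Diet labels were not used in this choice, but it used the values of all 24 fish, so diet differences of the members are not independent of it. Prebiotic fish held a median of 68.0% of the summed normalized counts of a member, which also counts toward the filter on the mean. The levels, mutual correlations and shared direction of the members are given as a description, because the choice was made on them.

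Ballan wrasse is a stomachless marine fish kept with farmed salmon to remove sea lice, and its hindgut is the last segment of the intestine. Each fish gave one hindgut library, and there were 6 fish on each of 4 diets. The prebiotic diet was a reference feed with 0.4% of the commercial prebiotic Aquate SG, the soyasaponin diet was that feed with 0.7% soyasaponin, the combined diet held both additions, and the control diet was the reference feed alone. All fish had first been kept for 4 weeks on the reference feed and were then fed their diet for 5 weeks. There were 2 tanks for a diet, and which tank a fish came from is not in the labels. Diet and tank effects cannot be told apart, and every p-value takes the 6 fish of a diet as independent. Age and sex of the fish are not given in the labels.

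A principal component is the weighted sum of transcript levels along which libraries differ most, and the first one takes the largest share of the variance. Transcripts follow one component when their levels go up and down together from sample to sample. In bulk RNA, fewer cells of a type and less RNA per cell cannot be told apart. Soyasaponins are soybean glycosides studied in fish feed for their action on the gut lining, and prebiotics are feed ingredients intended to favour certain gut bacteria.

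The transcripts carry LABE identifiers without gene names. A search of the RefSeq gene table for assembly fLabBer1.1 matched 0 of the 20751, so no gene function, chromosome position, sequence or cell type marker is given, and the tissue label could not be checked against marker genes. Recovered reads per library ran from 8.42 to 12.5 M (mega). Prebiotic replicates 4 and 5 had the highest scores on the first component, 113 and 108. Prebiotic replicate 2 followed at 81.8 and soyasaponin replicate 4 at 71.5. The comparisons of level and spread are also given without prebiotic replicates 4 and 5. Each of the 300 members was highest in 1 of these 2 fish, so smaller prebiotic differences without them are given by the omission.

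The first component held 31.5% of the variance between libraries, against 9.76% for the second. The members were 1.76% of the transcripts analysed and carried 68.9% of the squared weights of the component. They held 23.5% of the summed variance of all analysed transcripts. Their r with the component ran from 0.992 down to 0.916, with a median of 0.959. The order had no gap where the list ends: the last 2 members had r of 0.9164 and 0.9164, and the next in order, just outside, had 0.9158 and 0.9155. The mean normalized count over fish was 284 and 171 for the inside pair, against 215 and 30.7 for the outside pair. The component was one-sided. In all, 340 transcripts had r above 0.9 and 799 above 0.8, against 0 below -0.9 and 5 below -0.8.

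The members were present at very different totals in different fish. Their summed share of normalized counts in prebiotic fish 1 to 6 was 0.155%, 3.01%, 0.0720%, 5.82%, 5.25% and 0.0676%. In soyasaponin fish it was 0.0880%, 0.262%, 0.112%, 2.41%, 0.127% and 0.0956%. In combined fish it was 0.0855%, 1.39%, 0.241%, 0.0849%, 0.0856% and 1.75%. In control fish it was 0.103%, 0.0880%, 0.0829%, 0.936%, 0.170% and 0.522%. Every diet thus held fish near the lowest share beside fish far above it, and the diets overlapped. The prebiotic diet held both the highest and the lowest share of all fish, an 86.2-fold range, while the range was 27.3-fold on soyasaponin, 20.6-fold on the combined diet and 11.3-fold on control.

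The mean share was 2.40 ± 2.69% in prebiotic, 0.515 ± 0.928% in soyasaponin, 0.607 ± 0.759% in combined and 0.317 ± 0.346% in control fish (SD, n = 6 each). The SD exceeded the mean on all 4 diets. With prebiotic replicates 4 and 5 left out, the prebiotic mean was 0.827 ± 1.46% (SD, n = 4). The median share was 1.58% in prebiotic, 0.119% in soyasaponin, 0.163% in combined and 0.136% in control fish.

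**Figure D1:**
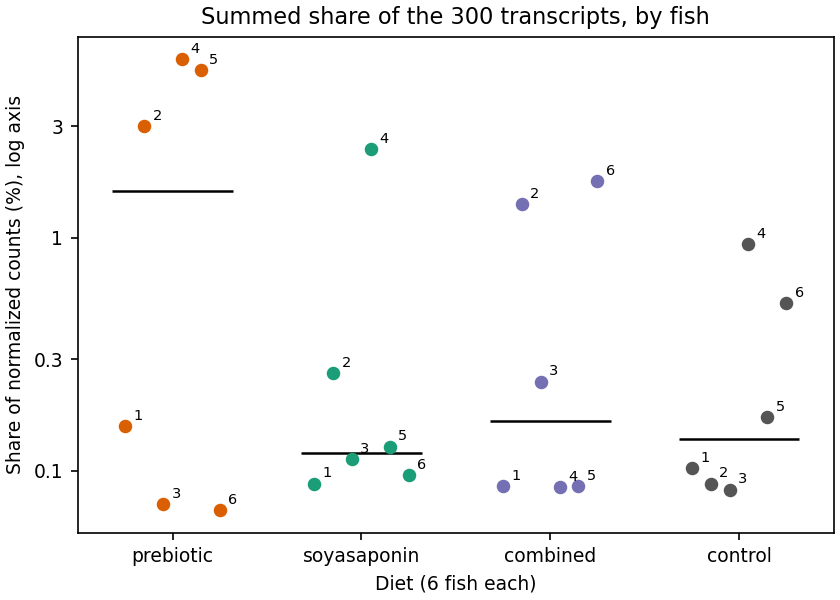
Summed share of the 300 transcripts in normalized counts (%, log axis) for each fish, by diet, with the replicate number beside each point and a bar at the median of the 6 fish. Prebiotic fish 4, 5 and 2 lie highest at 5.82%, 5.25% and 3.01%, while prebiotic fish 6 and 3 lie lowest at 0.0676% and 0.0720%.

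The plot of shares by fish shows points at the low end on all 4 diets and 1 to 3 points far above them on each. Other library measures varied far less. The summed normalized count of all transcripts outside the list ran 1.27-fold over the 24 fish, recovered reads 1.48-fold and size factors 1.77-fold. The number of transcripts with at least 1 read ran from 20043 to 20445. Size factors were 0.894 ± 0.105 in prebiotic, 1.11 ± 0.102 in soyasaponin, 0.953 ± 0.0489 in combined and 1.11 ± 0.190 in control fish (SD, n = 6 each). The part of size factors in the member levels was not tested.

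In low fish many members were not detected. The number of members with 0 reads was 6, 0, 104, 0, 0 and 56 in prebiotic fish 1 to 6. It was 76, 2, 20, 0, 30 and 26 in soyasaponin fish, 81, 0, 5, 107, 113 and 0 in combined fish, and 27, 71, 63, 0, 9 and 0 in control fish. A count of 0 allows up to 3 expected reads in that library, for counting error only. Of the 300 members, 166 had 0 reads in at least 1 fish (55.3%), 62 in at least 6 fish and 1 in at least 12 fish. Over all analysed transcripts, 641 of 17056 (3.76%) had 0 reads in at least 1 fish.

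The members spanned a wide range of levels. Their mean normalized count ran from 10.1 to 5121 with a median of 98.3. A mean above 1000 was found for 23 members and a mean under 20 for 34, and 22 members together held 50% of the summed means. The highest fish over the lowest, as a ratio of normalized count + 1, ran from 4.25 to 28011 between members with a median of 198. The median was 2.91 over all analysed transcripts. The range was at least 16-fold for 274 members. The highest fish was prebiotic replicate 4 for 167 members and prebiotic replicate 5 for the other 133.

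**Figure D2:**
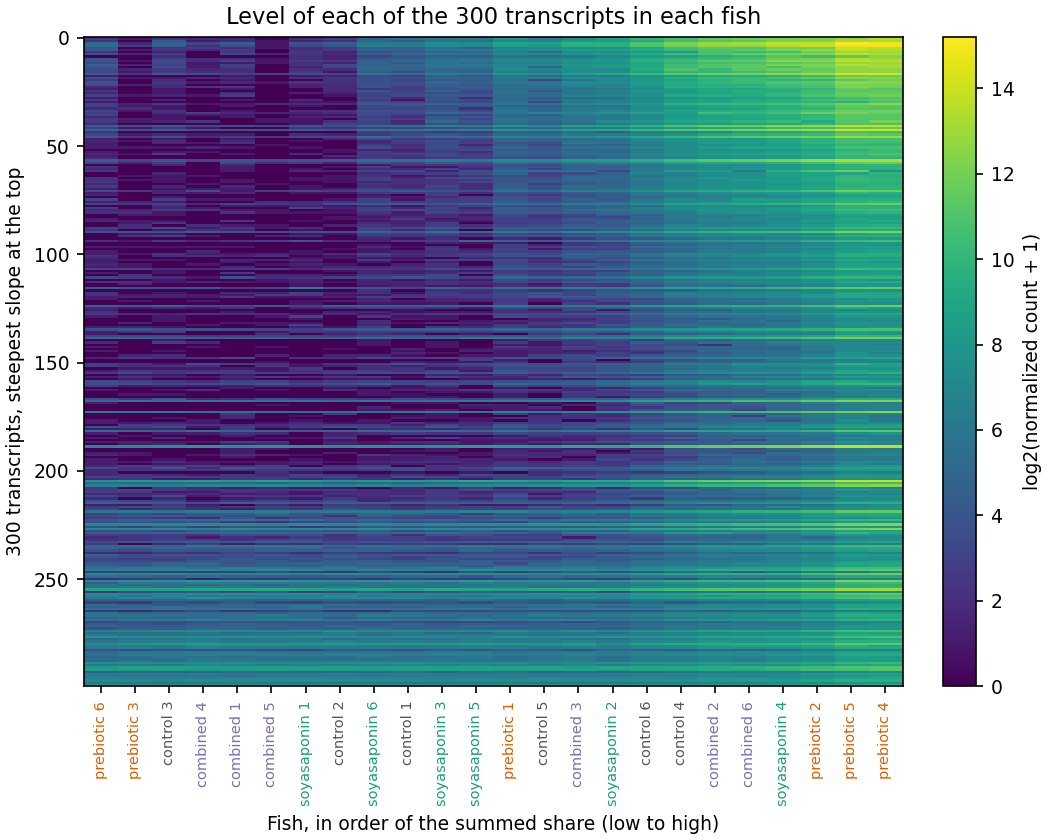
Level of each of the 300 transcripts, as log2(normalized count + 1) in colour, with transcripts down the page from the steepest slope on the other members and fish across the page from the lowest to the highest summed share (left to right, label colour by diet). Levels brighten toward prebiotic 5 and prebiotic 4 at the right, and the 97 transcripts with slopes under 0.8 at the bottom keep a visible level in nearly all fish.

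LABE_00053117-RA had the highest r with the component (0.992). Its normalized count was 515, 8260, 209, 15187, 15237 and 176 in prebiotic fish 1 to 6, and 270.3, 619, 309, 5513, 473 and 313 in soyasaponin fish. It was 274, 3328, 651, 354, 309 and 3986 in combined fish and 255, 236, 212, 2262, 397 and 1183 in control fish. This transcript was never absent: its lowest level was 176, in prebiotic fish 6, and the 4 diets overlapped at that low end. By diet it averaged 6597 ± 7352 in prebiotic, 1250 ± 2093 in soyasaponin, 1484 ± 1702 in combined and 758 ± 824 in control fish (SD, n = 6 each).

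LABE_00024047-RA, with the next highest r, was a low transcript with a mean of 14.9. It had 3.53, 41.3, 0, 83.0, 113 and 0 normalized counts in prebiotic fish 1 to 6, and 0, 4.00, 0.880, 42.4, 0.977 and 0.963 in soyasaponin fish. Combined fish had 0, 18.3, 6.37, 0, 0 and 21.8, and control fish had 0, 0, 0, 13.6, 1.78 and 5.86. The mean was 40.2 ± 48.5 in prebiotic and 8.21 ± 16.8 in soyasaponin fish (SD, n = 6 each). In combined and control fish it was 7.74 ± 9.91 and 3.54 ± 5.43. The transcript thus passed the filter of a mean of at least 10 only through the prebiotic fish. It had 0 reads in 9 fish, which lay on all 4 diets, and its most read library held 91 reads. Its ups and downs matched those of LABE_00053117-RA over the 24 fish (r = 0.981 on the log2 scale) at a far lower level.

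LABE_00015370-RA had both the highest mean, 5121, and one of the largest ranges over fish. In prebiotic fish 1 to 6 it had 493, 14417, 2.04, 30302, 37787 and 36.4 normalized counts, and in soyasaponin fish 12.6, 850.1, 176, 13851, 175 and 72.2. In combined fish it had 22.0, 7688, 901, 9.03, 1.01 and 8795, and in control fish 85.1, 23.1, 27.3, 4752, 459 and 1963. The same transcript thus had 1 read in combined fish 5 and 30324 reads in prebiotic fish 5. The lowest fish was at 2.04 counts on prebiotic, 12.6 on soyasaponin, 1.01 on the combined diet and 23.1 on control, and the highest at 37787, 13851, 8795 and 4752 in the same order of diets.

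LABE_00057800-RA, with the next highest mean (4310), and LABE_00048650-RA, the other member with the largest range, had the same form. LABE_00057800-RA had 413, 14772, 6.11, 28574, 28323 and 38.8 normalized counts in prebiotic fish 1 to 6. It had 8.37, 862, 172, 10631, 152 and 92.4 in soyasaponin fish, 11.0, 6091, 696, 3.39, 1.01 and 6504 in combined fish and 73.2, 14.0, 25.3, 3771, 315 and 1889 in control fish. The fish high in LABE_00015370-RA were high here as well. LABE_00048650-RA ranged from 2.04 to 28010 in prebiotic, 5.02 to 10006 in soyasaponin, 0 to 11163 in combined and 19.0 to 6338 in control fish (n = 6 each), with medians of 8887, 184, 339 and 181 in the same order of diets. Its highest fish was prebiotic replicate 4 and its 0 was in combined replicate 5.

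The members most like LABE_00053117-RA over the 24 fish, by Pearson r of log2(normalized count + 1), were LABE_00058647-RA (r = 0.995) and LABE_00020522-RA (r = 0.994). LABE_00058647-RA ranged from 40.0 to 5493 in prebiotic, 68.6 to 1667 in soyasaponin, 56.6 to 1603 in combined and 47.5 to 839 in control fish (n = 6 each), with medians of 1563, 96.6, 132 and 96.5 in the same order of diets. LABE_00020522-RA ranged from 209.8 to 16058 in prebiotic, 388 to 5516 in soyasaponin, 314 to 4311 in combined and 227 to 2338 in control fish, with medians of 3865, 525, 575 and 367. Neither was absent from any fish, and the ranges of the 4 diets overlapped for both.

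Ratios between members were taken for 4 pairs of named transcripts, and how far they varied differed between pairs. The ratio of LABE_00015370-RA to LABE_00057800-RA, computed on normalized count + 1 as for the other pairs, ran from 0.427 to 1.33 in prebiotic, 0.784 to 1.45 in soyasaponin, 1 to 2.29 in combined and 1.04 to 1.60 in control fish (n = 6 each). Its median was 1.02, 1.09, 1.32 and 1.21 in that order, and its range over the 24 fish was 5.35-fold. The 2 extreme ratios came from fish with few reads: 2 against 6 reads in prebiotic fish 3 and 8 against 3 reads in combined fish 4. LABE_00048650-RA over LABE_00015370-RA ran from 0.452 to 1.37 in prebiotic, 0.444 to 1.78 in soyasaponin, 0.426 to 1.27 in combined and 0.423 to 1.97 in control fish. That range includes combined fish 5, with 0 reads of LABE_00048650-RA. For LABE_00053117-RA over LABE_00024047-RA, 9 of the 24 fish had 0 reads of LABE_00024047-RA and their ratio is set by the pseudocount. Over the 15 fish with reads of both it ran from 114 to 195 in 4 prebiotic, 124 to 240 in 5 soyasaponin, 88.6 to 175 in 3 combined and 143 to 172 in 3 control fish. The ranges of these 3 ratios overlapped between all 4 diets. The SD over fish of the log2 ratio of LABE_00015370-RA over LABE_00057800-RA was 0.458 and that of LABE_00048650-RA over LABE_00015370-RA was 0.651, both low among pairs of members, where the lower quartile was 0.906.

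The ratio of LABE_00015370-RA to LABE_00053117-RA varied more, with an SD of 2.57 log2 units. It ran from 0.0145 to 2.48 in prebiotic, 0.04995 to 2.51 in soyasaponin, 0.00648 to 2.31 in combined and 0.102 to 2.10 in control fish, a 388-fold range over the 24 fish. The highest ratio was in prebiotic fish 5, soyasaponin fish 4, combined fish 2 and control fish 4, each among the 2 fish of its diet with the largest member share. The lowest ratio was in prebiotic fish 3, soyasaponin fish 1, combined fish 5 and control fish 2, in which LABE_00053117-RA had 209, 270.3, 309 and 236 counts and LABE_00015370-RA had 2.04, 12.6, 1.01 and 23.1.

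**Figure D3:**
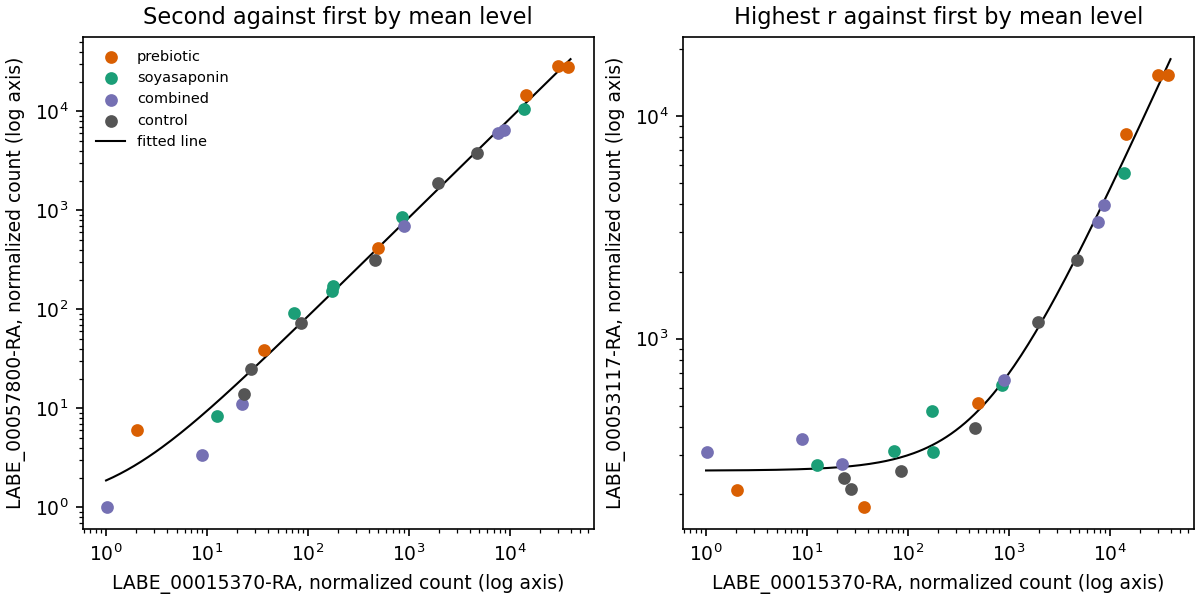
Normalized counts of LABE_00057800-RA (left) and LABE_00053117-RA (right) against those of LABE_00015370-RA, 1 point per fish coloured by diet, log axes, with the fitted straight line with an offset. The left pair falls along a diagonal with an offset of 1.03 counts, whereas the right curve is flat near its offset of 256 counts and joins the diagonal in the fish at the upper right.

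This difference was described for the whole list with a straight line of each member on LABE_00015370-RA, on the linear scale, with an offset that stands for the level of the member where LABE_00015370-RA would be 0. The lines were added after the values had been seen and carry no test. Over the lines of all other members, the offset was under 1 count for 120 members, 1 to 10 counts for 93, above 10 for 86 and above 100 for 20. For 19 of the 120 the offset was under 0, which cannot be a level. It was 256 counts for LABE_00053117-RA, 336 for LABE_00020522-RA, 61.6 for LABE_00058647-RA, 6.48 for LABE_00048650-RA, 1.03 for LABE_00057800-RA and 0.270 for LABE_00024047-RA. The median absolute residual of a member was 0.290 log2 units with the offset and 0.469 without it, and was smaller with the offset for 201 of them. A fit with an offset has 1 more free parameter. For 3 of the 6 named members the line without an offset had the smaller residual: 0.101 against 0.350 log2 units with it for LABE_00024047-RA, 0.581 against 0.658 for LABE_00048650-RA and 0.190 against 0.197 for LABE_00057800-RA.

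The slope of a member on the mean of the other members, both as log2(normalized count + 1), ran from 0.194 to 1.76 with a median of 0.995. It was under 0.8 for 97 members, 0.8 to 1.2 for 106 and above 1.2 for 97. Members with the shallow slopes had a median lowest level of 19.6 counts and a median range of 32.7-fold, and 4 of the 97 had 0 reads in a fish. Those with slopes of 0.8 to 1.2 had a median range of 198-fold, and 78 of the 106 had 0 reads in a fish. Those with the steep slopes had a median range of 1729-fold, and 84 of the 97 had 0 reads in a fish. On the linear scale the correlation of a member with the sum of the others had a median of 0.990 for the shallow slopes, 0.990 for those of 0.8 to 1.2 and 0.995 for the steep ones. It ran from 0.736 to 0.9995 over the 300 members and was above 0.95 for 284. With prebiotic replicates 4 and 5 left out, the medians were 0.974, 0.980 and 0.991, and 258 members were above 0.95.

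Within the list, 94.5% of the variance lay on 1 component and 2.12% on the next. Over all 44850 pairs of members, r on the log2 scale ran from 0.727 to 0.998 with a median of 0.927, over 24 fish that share their library and size factor between members. The SD over fish of the log2 ratio of a pair ran from 0.172 to 4.07 with a median of 1.31. The quartiles of that SD were 0.906 and 1.92, so ratios were graded between pairs, and the 2.57 of LABE_00015370-RA against LABE_00053117-RA lay above the upper one.

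The make-up of the member counts differed most from the rest in the fish with the lowest totals. Each fish's split of its member counts over the 300 transcripts was set against the split summed over the other 23 fish, and the share of counts that would have to move between transcripts to make them equal was taken. It was 27.0%, 7.69%, 68.5%, 8.13%, 11.6% and 61.2% in prebiotic fish 1 to 6. It was 68.1%, 16.4%, 46.3%, 8.73%, 50.7% and 55.0% in soyasaponin fish, 68.0%, 5.72%, 21.1%, 69.4%, 70.0% and 7.83% in combined fish and 55.8%, 67.2%, 65.5%, 6.78%, 34.3% and 10.1% in control fish. The fish with high shares on different diets had nearly the same make-up as the sum, which they dominate, and the fish with low shares did not.

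The choice of members was repeated without each fish in turn, and the members so chosen were then looked at in the fish left out. Between 288 and 297 of the 300 were the same transcripts. In the left-out fish, 166 to 300 of the 300 lay on the same side of their mean over the other fish. The larger side is counted, so this number cannot fall below an even split. In prebiotic fish 2, soyasaponin fish 4 and combined fish 6 all 300 lay above it, and in prebiotic fish 4 and 5 all but 1 did. In control fish 1 all 300 lay below it. The larger side was smallest in combined fish 3, with 166 below and 134 above, close to an even split. The level of that fish lay close to the mean of the others, with a median deviation of 0.531 log2 units. Without prebiotic replicates 4 and 5 together, 269 of the 300 were chosen again and the component held 24.1% of the variance.

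The list depended on leaving transcripts unscaled, so that transcripts with a large variance weigh more. When each was scaled to unit variance, the first component held 20.6% and only 10 of the 300 members were among its 300 highest. The score of the unscaled component still had an absolute r of 0.811 with the scaled one, and the 300 members had r with it of 0.586 to 0.926 with a median of 0.735. Of the 300 transcripts with the largest SD over all fish, 170 were members.

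Transcripts outside the list also varied along the same axis. With the members removed, the first component of the other transcripts held 15.6% of their variance and its score had an absolute r of 0.816 with the original one. Among the 3695 transcripts with a mean under 10, 37 (1.001%) had an r at least as high as that of rank 300, with means of 2.46 to 9.42 counts, and 0 had an r as far below 0. Their summed normalized count was 6.11 to 1520 in prebiotic, 10.0 to 459 in soyasaponin, 3.39 to 344 in combined and 8.26 to 209 in control fish (n = 6 each).

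The spread between fish of the same diet was wide for the members on every diet. The median SD of log2(normalized count + 1) over 6 fish was 3.35 for the members on the prebiotic diet, 2.06 on soyasaponin, 2.40 on the combined diet and 1.78 on control. Over all 17056 transcripts it was 0.383, 0.325, 0.287 and 0.307 in the same order of diets. The members had been chosen for large shared variation, so a larger SD than that of all transcripts is given by the choice. The SD was largest on the prebiotic diet for 294 members and on the combined diet for the other 6, and smallest on control for 217. It exceeded that of control for 300 members on the prebiotic diet, for 222 on soyasaponin and for 290 on the combined diet. These counts are not given over all transcripts, whose median SD was also largest on the prebiotic diet. The members go up and down together, so the counts amount to little more than 1 comparison of spread per diet. Without prebiotic replicates 4 and 5, the median SD of the members on the prebiotic diet was 2.81 over 4 fish, against 1.78 on control.

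**Figure D4:**
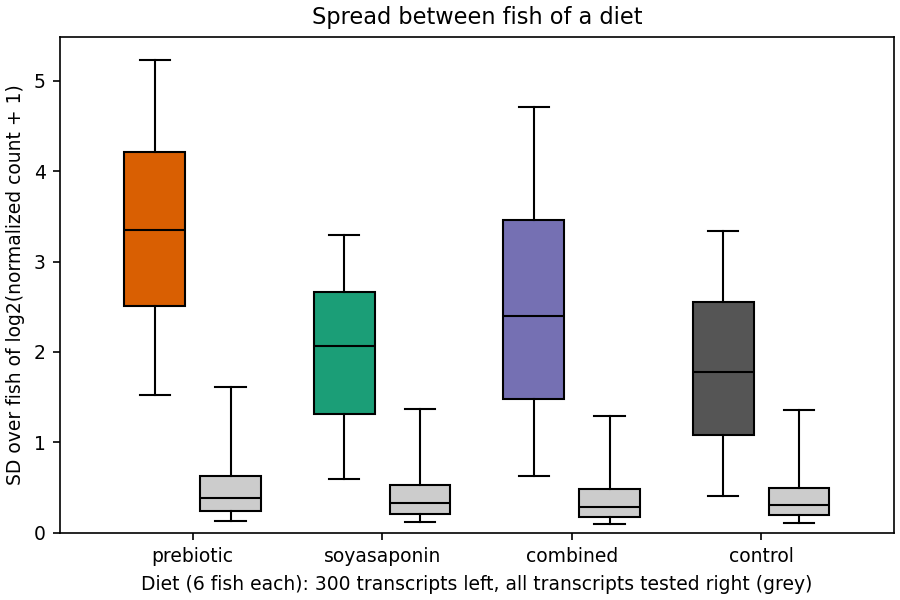
SD over the 6 fish of a diet of log2(normalized count + 1), for the 300 transcripts (coloured boxes) and for all 17056 analysed (grey boxes), by diet; boxes span the quartiles, lines mark the median and whiskers reach the 5th and 95th percentiles. The medians of the 300 are 3.35, 2.06, 2.40 and 1.78 on prebiotic, soyasaponin, combined and control, against 0.287 to 0.383 for all transcripts.

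The plot of spread by diet shows the coloured boxes above the grey ones on all 4 diets. Spread was compared between prebiotic and control fish with limma on the absolute deviation of each value from the median of its diet, fitted to all 17056 transcripts. Of the members, 15 had a wider spread on the prebiotic diet at an adjusted p under 0.05 (5% of 300), and 0 a narrower one, against 1.53% of all transcripts called in either direction. The smallest adjusted p of a member was 0.0263. The mean deviation was larger in prebiotic fish for 300 of 300, by a median of 1.53 log2 units, against 0.04 over all transcripts. That median was 0.50 without prebiotic replicates 4 and 5 (294 members larger, 6 smaller), 0.90 without prebiotic replicate 3 (297 larger, 3 smaller) and 0.94 without prebiotic replicate 6. The same fish carried both the choice of members and this spread, so the count is no independent result. The count also changed with single fish. It was 0 without prebiotic replicates 4 and 5 together and 0 when any single prebiotic fish was left out. Over all 24 omissions of 1 fish it was between 0 and 27, and the share of all transcripts called is given only for some of them. Without prebiotic replicate 1, 0% of all transcripts passed as well. In that fit 54 members (18%) had an unadjusted p under 0.05 in limma, against 9.49% of all transcripts. Over the omissions of 1 prebiotic fish, 33 to 54 members had one, so that share stands beside the highest of them. Over the 24 omissions, 33 to 176 members had one. The 176 (58.7%) came without control replicate 4, against 11.8% of all transcripts. The 33 came without a prebiotic fish, and no share of all transcripts is given beside it. That low end therefore shows neither an excess nor a lack.

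The 15 members with the wider spread were among those with the shallowest slopes. Their slope on the other members ran from 0.194 to 0.576 with a median of 0.328, their mean level from 27.8 to 618, and each had reads in all 24 fish. The SD was 0.779 to 2.67 on the prebiotic diet, 0.343 to 0.963 on soyasaponin, 0.297 to 1.16 on the combined diet and 0.183 to 0.584 on control. Their ranks in the list ran from 183 to 291.

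The level of the members was then compared between diets. With limma on log2(normalized count + 1) over all 17056 transcripts, 0 of the 300 members passed an adjusted p of 0.05 in any of the 6 contrasts. The members had been chosen for large shared variation, which widens the error of each difference. Few calls in limma, at an adjusted or unadjusted p, are thus partly given by the choice. They do not show the absence of a diet difference. For prebiotic against control, 1.82% of all transcripts passed, and 18 members had an unadjusted p under 0.05 (6% of the members, against 21.6% of all transcripts). The smallest adjusted p of a member was 0.108. The difference of means was positive for 300 of 300 members, 0.58 to 2.99 log2 units with a median of 2.02, against a median of 0.03 over all transcripts. The mean score on the component was 31.9 in prebiotic and -17.8 in control fish, so a shared positive sign is given by the choice. The members go up and down together, so the 300 differences amount to little more than 1 observation per fish. Without prebiotic replicates 4 and 5 the median difference was 0.30, and 249 members were higher and 51 lower.

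Named members showed the size of the error. For LABE_00053117-RA the prebiotic minus control difference was 1.89 log2 units with an SE of 1.12 (adjusted p = 0.319 in limma). For LABE_00020522-RA it was 1.95 with an SE of 1.04 (adjusted p = 0.273 in limma). For LABE_00015370-RA it was 1.97 with an SE of 2.42 (adjusted p = 0.639 in limma). Differences of similar size thus had errors from about 1 to above 2 log2 units.

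The count tests on recovered reads differed from each other here. For prebiotic against control, edgeR's quasi-likelihood test called 0 members (1.77% of all transcripts), with a smallest adjusted p of 0.0561 and 249 members at an unadjusted p under 0.05. DESeq2 called 97 members, all higher on the prebiotic diet, out of 293 with an adjusted p, against 9.93% of all transcripts called. The median difference of the members was 3.29 log2 units in edgeR and 3.29 in DESeq2, above the 2.02 of limma. With prebiotic replicates 4 and 5 left out, both count tests called 0 members, with 0 in edgeR and 1 in DESeq2 at an unadjusted p under 0.05, and the median difference was 1.62 in each. DESeq2 then gave an adjusted p for 209 members. The shares of all transcripts at an unadjusted p under 0.05 are not given for the count tests, here or below. The shares these tests called without prebiotic replicates 4 and 5 are not given either. The member counts of the count tests at an unadjusted p, and their 0 called without those fish, therefore show neither an excess nor a lack. Both count models compare means of counts, whereas limma compares means of logarithms. The part of this in the different numbers called was not tested.

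**Figure D5:**
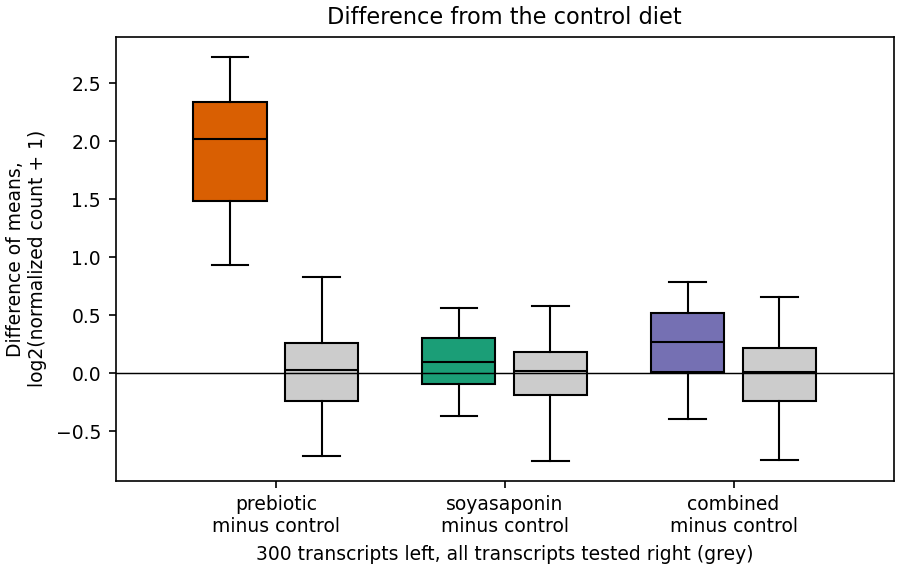
Difference of the mean log2(normalized count + 1) from the control diet for the prebiotic, soyasaponin and combined diets (6 fish each), for the 300 transcripts (coloured boxes) and all 17056 analysed (grey boxes); boxes span the quartiles, lines mark the median and whiskers reach the 5th and 95th percentiles. The medians of the 300 are 2.02, 0.09 and 0.26, and limma called 0 of the 300 in each comparison.

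The box plot of differences from control shows the other 2 diets near 0. For soyasaponin against control, limma called 0 members (0.985% of all transcripts), with 0 members at an unadjusted p under 0.05 (16% of all transcripts). The median difference was 0.09 log2 units, with 194 members higher and 106 lower, against 0.02 over all transcripts. Leaving out soyasaponin replicate 4 turned the median to -0.59, with 11 members higher. Leaving out control replicate 4 instead turned it to 0.57, with 281 members higher and 19 lower. Each was the fish of its diet with the largest member share, so both shifts are given by the omission. edgeR and DESeq2 called 0 members, beside 1.13% and 3.58% of all transcripts, and each had 0 members at an unadjusted p under 0.05.

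For combined against control, limma called 0 members (3.24% of all transcripts), with 0 at an unadjusted p under 0.05 (20.6% of all transcripts). The median difference was 0.26 log2 units, with 229 members higher and 71 lower, against 0.01 over all transcripts. Leaving out combined replicate 6 turned the median to -0.25, with 84 members higher. Without control replicate 4 instead it was 0.75, with 293 members higher and 7 lower. These 2 fish also had the largest member share of their diets, so both shifts are given by the omission. edgeR and DESeq2 called 0 members, beside 2.87% and 7.32% of all transcripts, and each had 0 at an unadjusted p under 0.05. The 3 comparisons share the control fish and are not independent.

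Over both levels of the other addition, the main effects compare 12 fish with 12. For the prebiotic main effect, limma called 0 members and 0% of all transcripts. The median difference of the members was 1.05 log2 units, positive for 300, with a smallest adjusted p of 0.277 in limma. The mean score on the component was 31.9 in prebiotic, -9.02 in soyasaponin, -5.08 in combined and -17.8 in control fish. The shared sign of the members here, in the soyasaponin main effect and in the interaction follows these scores, on which they were chosen. In limma 6 members (2%) had an unadjusted p under 0.05, against 14.8% of all transcripts. edgeR called 0 members and 0% of all transcripts, with 116 members at an unadjusted p under 0.05. DESeq2 called 0 members and 0.784% of all transcripts, with 136 members at an unadjusted p under 0.05. When prebiotic replicates 4 and 5 were left out, the median in limma was 0.24, and 0 members in edgeR and 1 in DESeq2 had an unadjusted p under 0.05.

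For the soyasaponin main effect, limma called 0 members and 5.96% of all transcripts. The median difference of the members was -0.81 log2 units, negative for 300, with a smallest adjusted p of 0.242 in limma. That shared sign follows the scores used in the choice. In limma 0 members had an unadjusted p under 0.05, against 21.4% of all transcripts. edgeR called 0 members and 6.36% of all transcripts, and DESeq2 called 0 members and 9.41%, with 1 and 10 members at an unadjusted p under 0.05. After omission of prebiotic replicates 4 and 5 the median in limma was 0.02, with 161 members higher and 139 lower. Those fish had the highest levels of the members, and high fish of the other diets were kept. The change of sign therefore does not show what the difference rests on.

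For the interaction, the difference that the prebiotic made with soyasaponin minus the difference it made without, limma called 0 members and 0% of all transcripts. The median of the members was -1.73 log2 units, negative for 300, with a smallest adjusted p of 0.425 in limma. This shared sign also follows the scores used in the choice. In limma 0 members had an unadjusted p under 0.05, against 12.7% of all transcripts. edgeR called 0 members and 0% of all transcripts, and DESeq2 called 0 members and 0.831%, with 27 and 65 members at an unadjusted p under 0.05. Without prebiotic replicates 4 and 5 the median in limma was -0.13, with 116 members higher and 184 lower, and edgeR and DESeq2 had 0 members at an unadjusted p under 0.05.

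The members differed from the transcripts at the other end of the same component. The 300 transcripts with the lowest r (down to -0.840) had a median SD over all fish of 0.319 log2 units and a median range of 2.42-fold, against 2.47 and 198-fold for the members. Their summed share of counts ran from 0.767% to 1.73% over the 24 fish, and 2 of them had 0 reads in a fish. The 300 transcripts with the highest absolute r with the second component had a median SD of 0.434 and a median range of 3.02-fold. All 3 lists were chosen on the same values, so these are descriptions without a test.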

How the data were processed

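Stranded mRNA libraries of hindgut from 24 fish were sequenced as paired ends, per the labels' protocols. The submitters' processing notes name cutadapt, TopHat2, featureCounts, Subread and DESeq2. For versions, roles, genome build and annotation, nothing is stated in the sources used here. The values that the authors deposited are a signal, the reads of a transcript over the size factor of the library. All of 498024 values (100%) were whole reads within 1e-06 after division by the column's smallest step, so reads were recovered. Size factors recomputed from the recovered reads equalled those inferred from the smallest step of each column (ratio 1). Recovered reads averaged 9.61 M (mega) per library. Reads of 60 same-diet pairs of libraries differed by a chi-square per degree of freedom of 18.1 to 86.4, so each library counted as 1 fish.

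The members and all lists were chosen with earlier results of these data known. limma 3.58.1 (R 4.3.3, intensity trend) was fitted to log2(normalized count + 1) of 17056 transcripts with a mean of at least 10, all 4 diets together, two-sided, with Benjamini-Hochberg adjustment over all of them. The pseudocount of 1 understates changes of low transcripts. DESeq2 1.42.0 and edgeR 4.0.16 (TMM, quasi-likelihood) ran on recovered reads. Transcripts were named by rule: the 2 highest r, the 2 highest means, the 2 largest ranges and the 2 most like the first. Alternatives were the pseudocount, the filter, scaling, quantile normalization, Spearman correlation, the diets in the fit and leaving out fish. Count tests without prebiotic replicates 4 and 5 were added after seeing the data. The tests were checked on simulated counts in which each transcript varied independently of the others. That check does not cover transcripts that vary together, as the members do.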

Additional observations from a re-analysis of the deposited data

Results flagged for a closer look

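In 9 of 44 sets of 6 fish, 1 fish lay farther from the other 5 than Dixon's limit at the 95% level allows, as a share of the set's whole range, and in all 9 it was soyasaponin replicate 4. Chance alone gives about 1 in 20 for normally distributed values, and most of the 9 are on linear counts or shares. The 9 are not independent, because the transcripts vary together and were chosen on this component. They are given as a description. The fish stood above the other 5 soyasaponin fish in the summed share of the 300 transcripts (2.41%) and in its score on the first component (71.5). It did so as well in LABE_00053117-RA (5513 normalized counts), LABE_00024047-RA (42.4), LABE_00015370-RA (13851), LABE_00057800-RA (10631), LABE_00048650-RA (10006), LABE_00058647-RA (1667) and LABE_00020522-RA (5516). The mean log2 level of the members, 7.78 in soyasaponin replicate 4 and 5.01 in soyasaponin replicate 2, the next highest, did not pass the limit. No prebiotic, combined or control fish passed this limit, and each of those diets had more than 1 high fish.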

How the results depend on the processing

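The list of 300 shared 200 to 297 transcripts with the list chosen under each alternative but one. With transcripts scaled to unit variance it shared 10. With a mean of at least 50 it shared 200, since 100 members have lower means. The median SD of the members on the prebiotic diet over that on control was 1.88. Under each alternative this ratio was taken on the list chosen anew, not on the 300 members. For those lists it was 2.43 with a mean of at least 50 and 1.70 to 2.32 over omissions of 1 fish. It was 1.58 without prebiotic replicates 4 and 5. With scaled transcripts it was 3.60, on a list that holds only 10 of the members. The count of members called by limma for prebiotic against control was 0, was 97 in DESeq2 (0 in DESeq2 without prebiotic replicates 4 and 5, chosen after seeing the data), and was 0 to 1 over omissions of 1 fish (1 without prebiotic replicate 6). In the other 5 contrasts of level the count was 0 under each alternative run. The count of members with a wider spread on the prebiotic diet was 15, beside 1.53% of all transcripts called in either direction. It was 7 after quantile normalization, beside 0.451% of all transcripts. It was 0 without prebiotic replicates 4 and 5, and 0 to 27 over omissions of 1 fish. It was 0 in 14 of the 24 omissions: 6 of 6 prebiotic, 3 of 6 soyasaponin, 0 of 6 combined and 5 of 6 control fish. It was 27 without soyasaponin replicate 4. Without control replicate 4 it was 10, beside 0.557% of all transcripts. Without prebiotic replicate 1, or without any of those 5 control fish, 0% of all transcripts passed as well. For the remaining omissions, the 27 among them, no share of all transcripts is given. Their counts are therefore not read as a change in the members. The causes were not tested. No paired analysis was possible because the replicate numbers follow record order and pair no fish. A value of 0 reads, found for up to 113 members in a fish, allows up to 3 expected reads at that depth.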
